A study of Homo sapiens with 12 samples.

Results

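The linear mRNA probes of profilin and the cytoplasmic actins were examined on a microarray made for circular RNAs, after the RNA had been digested with RNase R, an exonuclease that degrades linear RNA and spares closed circles. The probes were PFN1 (CUST_13_PI418767722, designed on NM_005022), ACTG1 (CUST_15_PI418767722, NM_001614) and ACTB (CUST_7_PI418767722, NM_001101), each printed as 10 spots. They were chosen by gene name from the 70 linear mRNA probes among 13762 probes that the scanner software does not code as its own controls, with 2 kinds of earlier result of these arrays in view: their signal against the negative-control probes and their values in the 24 h comparison. Those values are therefore given as a description with no test. In the GRCh38.p14 annotation of RefSeq, PFN1 lies at chr17:4945652-4948530, ACTG1 at chr17:81509971-81512799 and ACTB at chr7:5527148-5530601. The probes are annotated to the spliced mRNAs, and which exon each one binds was not analysed here.

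EndoC-βH1 is a human insulin-producing β-cell line, and 12 one-colour arrays of it were made, 3 for each of 4 groups. Untreated cells were collected at 24 h and at 48 h, and at the same times cells exposed together to IL-1β at 50 U/mL and IFN-γ at 1000 U/mL, which are cytokines of the inflamed islet in type 1 diabetes. The sample labels of the 48 h cytokine arrays give a collection time of 48 h but an exposure of 24 h, whereas the study's methods give an exposure of 48 h. The time in the group names below is the collection time. All cells are of 1 line, and no source used here says whether the 3 arrays of a group came from separate cultures, so p-values measure only the spread between these arrays.

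Actin is the protein of the microfilaments. ACTB and ACTG1 encode the β and γ cytoplasmic isoforms, which are nearly identical proteins, and PFN1 encodes profilin 1, which binds actin monomers and delivers them to growing filament ends. In β-cells a web of filamentous actin under the plasma membrane takes part in the control of insulin granule release. All of these transcripts are abundant in most cells, which is why actin mRNA is widely used as a reference, and after RNase R what is left of them is a residue and not their level in the cell. Because less input RNA, a stronger digestion and a lower transcript level all give a dimmer spot, they cannot be told apart here. ACTB, ACTG1 and their processed pseudogenes share long stretches of sequence, and how far 1 probe binds the transcript of another was not tested.

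The RefSeq promoter table (GRCh38.p14) matched 2 of the 3 genes, PFN1 and ACTG1. The 250 bases before their annotated starts are shown because they are the stretches in which binding motifs of serum response factor (the CArG box, by which actin genes are known to be controlled) and of the cytokine-activated factors were sought. Both genes lie on the minus strand and are written 5′ to 3′ in the direction of transcription, and capitals mark a CArG box or a CCAAT box.
PFN1 (chr17:4948531-4948780, minus strand): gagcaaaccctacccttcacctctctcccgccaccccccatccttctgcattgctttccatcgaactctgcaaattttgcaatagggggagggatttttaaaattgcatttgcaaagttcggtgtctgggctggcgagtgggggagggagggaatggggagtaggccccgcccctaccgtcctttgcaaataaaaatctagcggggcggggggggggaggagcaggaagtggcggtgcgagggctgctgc
ACTG1 (chr17:81512800-81513049, minus strand): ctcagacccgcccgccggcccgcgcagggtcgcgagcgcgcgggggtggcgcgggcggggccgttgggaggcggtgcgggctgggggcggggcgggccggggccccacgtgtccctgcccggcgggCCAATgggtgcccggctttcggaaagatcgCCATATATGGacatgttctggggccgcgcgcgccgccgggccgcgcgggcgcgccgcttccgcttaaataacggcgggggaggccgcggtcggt
In ACTG1 a CArG box, CCATATATGG, lay at positions -94 to -85 and a CCAAT box at -124 to -120, counted back from the base before the start as -1. PFN1 held neither. Of 35116 promoters of the same length, 1.16% held a CArG box and 32.0% held CCAAT on either strand. Neither gene had a match to GAAANNGAAA, the core of the interferon-stimulated response element (in 3.02% of promoters), to the NF-κB site (9.96%) or to TATAAA (10.7%), each sought on both strands. The GC box GGGCGG, present in 42.6% of promoters, matched 2 times in PFN1 and 4 times in ACTG1, with 1 pair in ACTG1 that shares its end base. The stretch of ACTG1 was 78.8% G or C and that of PFN1 58.0%, against a median of 58.0% over all promoters. These are matches of letters, and what binds there was not measured.

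The median spot on an array had a pixel signal of 24.0 to 34.0 intensity units over a local background of 14.0 to 16.0, and between 8773 and 10265 probes per array were called well above background. The 3 arrays that stood apart are named beside the results they touch. Cytokines 24 h replicate 1 had the highest median background-subtracted signal (18.3 units, against a median of 10.8 over the arrays). Untreated 48 h replicate 3 came next, with 17.0 units. Cytokines 48 h replicate 3 had the lowest median signal (9.20 units) and the fewest probes detected (8773). No slide number was given, so arrays scanned on the same day were taken as 1 slide, and no array position recurred within a slide. By this inference all 24 h arrays and untreated 48 h replicates 1 and 2 lay on 1 slide. Untreated 48 h replicate 3 and all cytokine arrays at 48 h lay on another, so inferred slide and treatment are partly confounded at 48 h. Of the fixed gene lists, the array's linear probes held 3 of 40 actin cytoskeleton genes (the members), the reference genes GAPDH and PGK1, 0 of 17 interferon and interleukin response genes, 0 of 12 β-cell markers and 0 of 16 markers of other cells. The labelled cell type could therefore not be checked with linear probes.

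Every one of the 120 spots of each gene was well above background and none was saturated. The values below are log2 background-subtracted intensities, quantile normalized between arrays and averaged over the uniform spots of a probe. Signals of different probes depend on the probe as well as on the RNA, so each gene is compared with itself. The 60 negative-control probes had a median of 0.02 to 0.12 per array on this scale, and the brightest of them reached 2.93 to 4.48. Of the 60, 2 were also flagged as well above background on every array, so that flag alone does not set a probe apart from them.

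PFN1 lay farthest from background, with no separation of the groups. It measured 11.89, 12.03 and 11.75 on the 3 untreated arrays at 24 h, and 10.03, 12.03 and 12.10 on the cytokine arrays at 24 h. At 48 h it measured 11.91, 11.55 and 11.40 on untreated arrays and 11.95, 11.48 and 11.25 on cytokine arrays. In 11 of 12 arrays the signal thus stayed between 11.25 and 12.10, and only cytokines 24 h replicate 1 lay lower, by more than 1 log2 unit. That array was the one with the highest overall signal and with the lowest brightest negative control (2.93); their part in its low PFN1 value was not tested. PFN1 lay 7.01 to 8.41 log2 units above the brightest negative control on all 12 arrays. Before normalization the median PFN1 spot ranged from 1381 to 10154 intensity units, with untreated 24 h replicate 2 the brightest and cytokines 24 h replicate 1 the dimmest. In order of the group means, PFN1 was 11.89 ± 0.14 (SD, n = 3) in untreated cells at 24 h, 11.62 ± 0.26 in untreated cells at 48 h, 11.56 ± 0.35 in cytokine-exposed cells at 48 h and 11.39 ± 1.18 in cytokine-exposed cells at 24 h. The ranges of all neighbours in that order overlapped. Quantile normalization sets a spot by its rank on the array, which holds the brightest spots close together; with each array scaled to its 75th percentile instead, PFN1 ran from 9.76 (cytokines 24 h replicate 1) to 13.08 (untreated 24 h replicate 2).

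ACTG1 showed the clearest separation of cytokine arrays from untreated ones. At 24 h it measured 5.65, 5.90 and 6.57 in untreated cells and 7.25, 7.25 and 7.06 after cytokines. At 48 h it measured 6.41, 6.56 and 6.33 in untreated cells and 6.56, 6.72 and 7.28 after cytokines. All cytokine arrays at 24 h were brighter than all untreated arrays at 24 h, by at least 0.48, whereas at 48 h the dimmest cytokine array exceeded the brightest untreated array by 0.0026. That 48 h margin was lost with 75th percentile scaling. The highest 48 h value belonged to cytokines 48 h replicate 3. ACTG1 exceeded the brightest negative control by 1.57 to 4.31 on all 12 arrays. The group means ran from 6.04 ± 0.48 (untreated 24 h) through 6.43 ± 0.12 (untreated 48 h) and 6.86 ± 0.38 (cytokines 48 h) to 7.19 ± 0.11 (cytokines 24 h), each with n = 3. Of these neighbours, the untreated groups of both times overlapped, and so did the cytokine groups of both times.

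ACTB was close to the background of the array. It measured 4.01, 4.01 and 4.90 in untreated cells at 24 h and 4.15, 4.72 and 5.05 after cytokines. At 48 h it measured 4.45, 4.72 and 3.57 in untreated cells and 3.65, 4.45 and 5.61 after cytokines. Groups overlapped at both times, and the 3 cytokine arrays at 48 h covered nearly the whole range of the gene. In contrast to PFN1 and ACTG1, ACTB exceeded the brightest negative control on 8 of 12 arrays only. On the other 4, which were untreated 24 h replicates 1 and 2, untreated 48 h replicate 3 and cytokines 48 h replicate 1, 1 or 2 negative controls were brighter, and the distance to the brightest ran from -0.83 to 1.37 over all arrays. The median ACTB spot had 10.7 to 39.7 intensity units after background subtraction. Group means were 4.25 ± 0.60 (untreated 48 h), 4.31 ± 0.52 (untreated 24 h), 4.57 ± 0.99 (cytokines 48 h) and 4.64 ± 0.46 (cytokines 24 h), n = 3 each, and no neighbours differed beyond their spread. Among the 69 linear probes with a uniform spot on every array, 10 exceeded the brightest negative control on all arrays, PFN1 and ACTG1 among them.

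**Figure D1:**
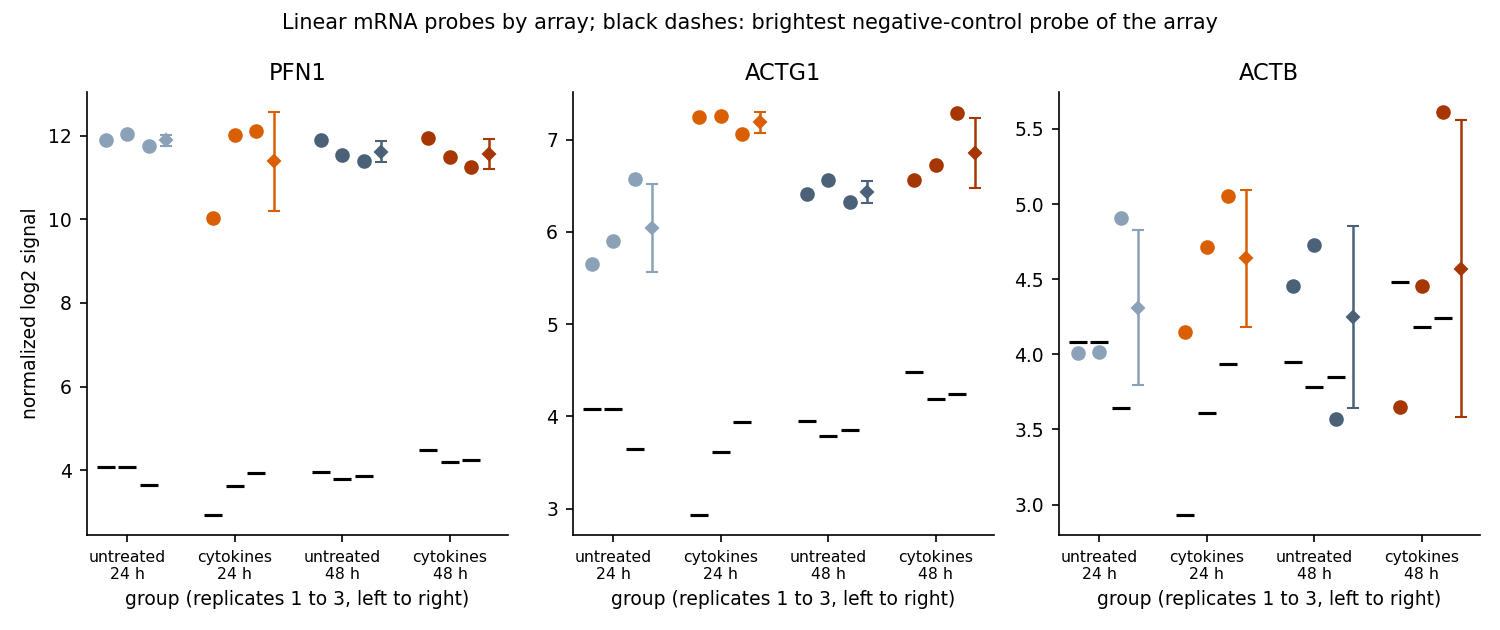
Normalized log2 signal (y axis, own scale in each panel) of PFN1, ACTG1 and ACTB on each of the 12 arrays by group (x axis); circles are arrays, diamonds with bars are group means ± SD (n = 3), and black dashes are the brightest negative-control probe of the same array. PFN1 and ACTG1 lie above the dash on all 12 arrays and ACTB on 8, and the ACTG1 circles of the cytokine arrays at 24 h lie 0.48 or more above those of the untreated arrays.

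Pooled over the groups, the 10 spots of a probe repeated each other better than the arrays of a group did. The pooled SD between spots of one array was 0.11 log2 units for ACTG1, 0.11 for ACTB and 0.27 for PFN1. The pooled SD between replicate arrays was 0.31 for ACTG1, 0.67 for ACTB and 0.63 for PFN1, which is 2.98, 6.25 and 2.38 times the spot SD. Repeat spots thus say little about the error of a comparison between groups. For PFN1 the larger pooled array spread rested on cytokines at 24 h, with an array SD of 1.18. In untreated cells its array SD was 0.14 at 24 h and 0.26 at 48 h, against a mean spot SD of 0.18 and 0.27. With cytokines at 48 h it was 0.35 against 0.31. The ACTG1 array SD was close to its mean spot SD with cytokines at 24 h (0.11 against 0.10) and in untreated cells at 48 h (0.12 against 0.11). The scanner software marked 1 spot of PFN1 as non-uniform, which was left out, and marked 2, 6 and 4 spots of PFN1, ACTG1 and ACTB as outliers among their replicates, which were kept. Even the highest PFN1 spot of cytokines 24 h replicate 1 (10.32) lay below the lowest spot of that gene on any other array (10.69), so the low value of that array was shared by all its spots.

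**Figure D2:**
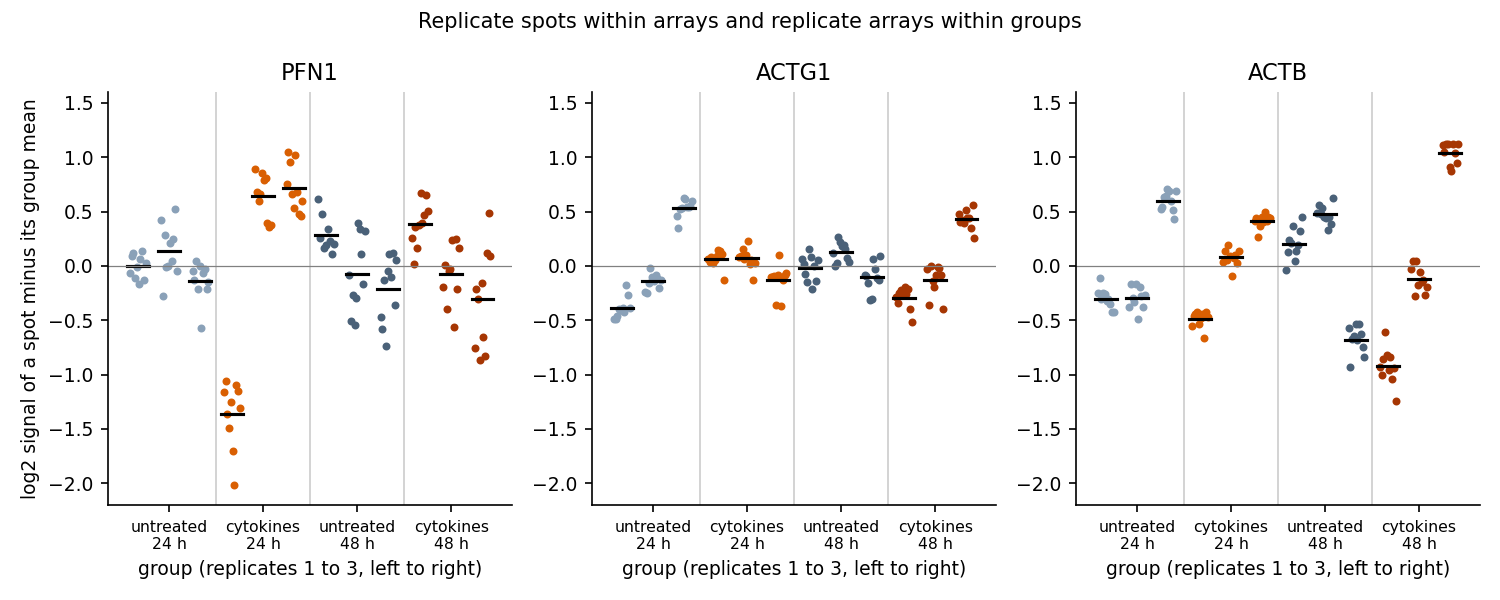
Each uniform spot's log2 signal minus the mean of its group (y axis) for the 12 arrays in order of group and replicate (x axis); dots are spots and black lines their mean on the array. Spots scatter with a pooled SD of 0.27 for PFN1, 0.11 for ACTG1 and 0.11 for ACTB. Array means differ more in some groups, as in PFN1 on cytokines 24 h replicate 1 and ACTB at 48 h.

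At 24 h, ACTG1 was 1.14 ± 0.28 log2 units (SE from the fit, 2.21-fold) higher with cytokines, ACTB 0.33 ± 0.48 higher and PFN1 0.50 ± 0.45 lower on the same scale. All 3 cytokine arrays were on one side of all 3 untreated arrays for 1 of the 3 genes, ACTG1, and the same held for 17.5% of the 10252 probes fitted. A probe was called at an absolute log2 fold change of 1 or more and a Benjamini-Hochberg adjusted p under 0.05 over these 10252 probes, and 1.21% of them met this at 24 h. Of the 3 genes 0 met it, a count from which nothing is read, since the genes were chosen with this comparison in view. The ACTG1 difference kept its sign whichever single array was left out, between 0.95 and 1.41. Without cytokines 24 h replicate 2, the one array of that slide scanned separately, ACTG1 differed by 1.11, ACTB by 0.29 and PFN1 by -0.82. The PFN1 difference rested on cytokines 24 h replicate 1, without which it was 0.18 in the opposite direction. Other choices of scaling, background, spot average, slide and array weights gave 0.70 to 1.27 for ACTG1, 0.09 to 0.60 for ACTB and -0.91 to -0.07 for PFN1, the lowest PFN1 value with 75th percentile scaling and the highest value of each gene with array weights.

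The 48 h comparison asked whether the residual signal differed with cytokines at the later time, and none of the 3 genes passed the call there. ACTG1 was 0.42 ± 0.28 log2 units higher (SE; 95% interval -0.18 to 1.02), with an adjusted p of 0.691 from limma over all probes. ACTB was 0.32 ± 0.48 higher (-0.71 to 1.36), with a limma adjusted p of 0.895. PFN1 differed by -0.06 ± 0.45 (-1.04 to 0.93), with a limma adjusted p of 0.982. Each interval holds a log2 difference of 1 in one direction, so a change of that size cannot be told from none with 3 arrays a group. Over the same arrays, 0.966% of the 10252 probes were called.

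The exact two-sided permutation test over the 6 arrays at 48 h gave p = 0.1 for ACTG1, the smallest that 3 against 3 arrays can give. The same exact test gave p = 0.7 for ACTB and p = 0.8 for PFN1. The ACTG1 arrays did not overlap, by a margin of 0.0026 log2 units, and 21% of all probes did not overlap either. With 75th percentile scaling the ACTG1 arrays overlapped, with cytokines 48 h replicate 1 at 6.560 and untreated 48 h replicate 2 at 6.562. The separation at 48 h thus depended on the scaling. Direction depended on single arrays for ACTB and PFN1. Without cytokines 48 h replicate 3 the ACTB difference was -0.20, and without untreated 48 h replicate 3 it was -0.02. PFN1 ranged from -0.25 to 0.10 as each array was left out, and ACTG1 from 0.21 to 0.57. On the second slide alone, 1 untreated and 3 cytokine arrays, the differences were 1.00 for ACTB, 0.53 for ACTG1 and 0.16 for PFN1. The fit with slide as a block gave the same differences by construction, since only the untreated 48 h group spanned both slides. It is no separate check. Its limma adjusted p was 0.876, 0.909 and 0.986 in that order.

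**Figure D3:**
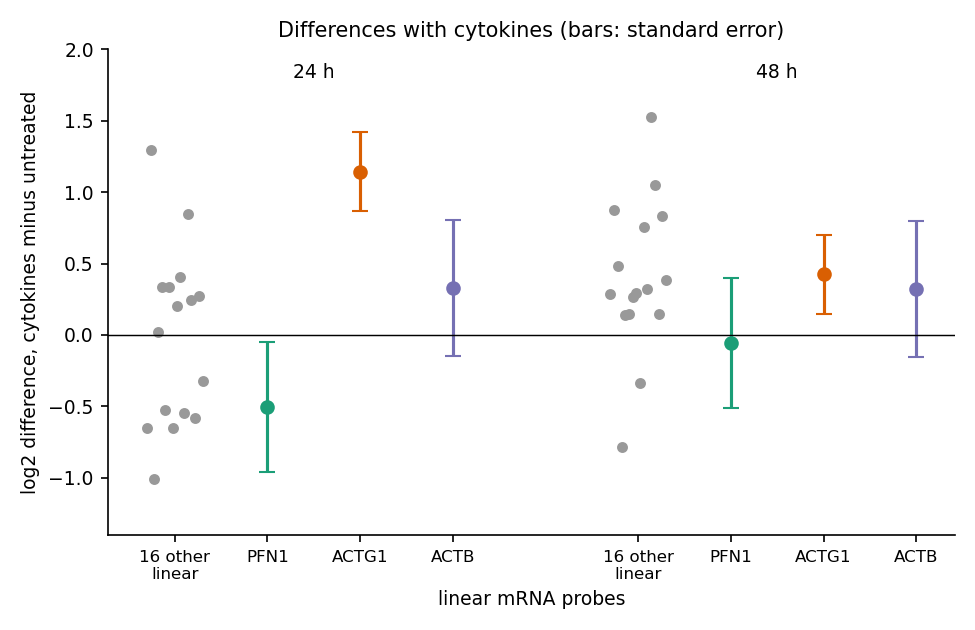
Log2 difference of cytokine-exposed minus untreated cells (y axis) at 24 h (left) and 48 h (right) for PFN1, ACTG1 and ACTB, with bars for the standard error, beside the 16 other linear mRNA probes detected on all arrays (grey dots, 1 per probe). ACTG1 lies at 1.14 at 24 h and 0.42 at 48 h, within the range of the grey dots at both times (-1.01 to 1.30 at 24 h and -0.78 to 1.53 at 48 h).

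The change at 48 h was 0.72 ± 0.39 log2 units (SE) below the change at 24 h for ACTG1, as a description. The corresponding values were -0.01 ± 0.68 for ACTB and 0.45 ± 0.64 for PFN1, the last of which was -0.23 without cytokines 24 h replicate 1. In untreated cells alone, ACTG1 was 0.39 higher at 48 h than at 24 h, ACTB -0.06 and PFN1 -0.27. The untreated 24 h arrays enter both the 24 h change and this difference. Of the 0.72, the higher untreated mean at 48 h makes up 0.39 and the lower cytokine mean the rest.

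The rest of the linear probes gave mostly positive differences at 48 h. Of the 16 other linear probes detected on every array, 9 were higher and 7 lower with cytokines at 24 h, with a median difference of 0.11. At 48 h, 14 were higher and 2 lower, with a median of 0.31, against 0.00 over all 10252 probes, and these counts were the same under the other 4 scalings tried. The signal of these probes on an array (their median) was 4.02 to 4.84 on 11 arrays and 6.28 on cytokines 48 h replicate 3, the array that also gave ACTG1 and ACTB their highest values. Of 23 linear probes fitted, none was called at either time. An unadjusted limma p under 0.05 was found for 5 of the 23 at 24 h and 3 at 48 h. Over all 10252 probes the same held for 1954 at 24 h and 1042 at 48 h, so nothing is read from these counts.

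Set against that median on each array, ACTG1 was 0.75 higher with cytokines at 24 h, with groups that now overlapped, and 0.60 lower at 48 h. Its sign at 48 h thus turned with the reference (exact two-sided permutation p = 0.2). PFN1 on this relative scale was 0.90 lower at 24 h and 1.08 lower at 48 h, where the groups did not overlap (exact permutation p = 0.1, the smallest possible). ACTB on this scale was 0.06 lower at 24 h and 0.70 lower at 48 h (exact permutation p = 0.2). The reference median lay close to the brightest negative control on some arrays, as at 4.02 against 3.78 on untreated 48 h replicate 2. It also separated the groups itself, at 4.65 to 6.28 with cytokines against 4.02 to 4.45 in untreated arrays at 48 h. At 24 h it was 4.60 to 4.84 against 4.09 to 4.47. A probe with no change of its own would thus appear lower with cytokines. PFN1 itself differed by -0.06 at 48 h, and its separation on the relative scale is not read as a change of PFN1. The relative PFN1 values of cytokine arrays at 48 h were 7.20, 6.83 and 4.97, against 7.27 to 7.52 in untreated arrays, with replicate 3 well below the other two. Single arrays set much of these relative differences. Without cytokines 24 h replicate 1 that of PFN1 at 24 h was -0.20, and without cytokines 48 h replicate 3 that of PFN1 at 48 h was -0.40 and that of ACTG1 -0.29. That of ACTG1 at 24 h ran from 0.49 (without untreated 24 h replicate 1) to 1.14 (without untreated 24 h replicate 3). That of ACTB at 24 h ran from -0.34 to 0.36 and had no stable sign, and at 48 h it ran from -1.01 (without untreated 48 h replicate 3) to -0.38 (without untreated 48 h replicate 2).

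GAPDH, the glycolytic enzyme commonly paired with actin as a reference, differed by 0.33 ± 0.20 log2 units (SE) at 24 h and 0.14 ± 0.20 at 48 h. PGK1, another glycolytic enzyme, differed by 0.34 ± 0.21 and 0.27 ± 0.21. Neither was called in limma at either time. Their differences were positive at both times under all 5 scalings, as were those of ACTG1 and ACTB, whereas that of PFN1 was negative at 24 h under all 5 and lay between -0.06 and 0.06 at 48 h.

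The genes were also compared with one another within each array, which shows unequal change and not which of a pair changed. At 24 h ACTG1 minus PFN1 was 1.65 log2 units higher with cytokines and ACTG1 minus ACTB 0.81 higher, both with groups that did not overlap. The nearest arrays, cytokine against untreated, were at -5.05 against -5.18 for ACTG1 minus PFN1 and 2.01 against 1.89 for ACTG1 minus ACTB. With 75th percentile scaling the groups of ACTG1 minus PFN1 overlapped. How many other pairs of probes separate in this way was not counted. ACTB minus PFN1 was 0.83 higher, with overlap. Without cytokines 24 h replicate 1 these differences were 0.94, 0.54 and 0.40. At 48 h the same differences were 0.48, 0.10 and 0.38, all with overlap, and the exact two-sided permutation p was 0.4, 0.9 and 0.8. As each array was left out, ACTG1 minus PFN1 was lowest without cytokines 48 h replicate 3 (0.11) and highest when replicate 1 of that group was dropped (0.82). ACTG1 minus ACTB ran from -0.21 to 0.41 and ACTB minus PFN1 from -0.30 to 1.03 with these same arrays dropped at the ends, so that neither had a stable sign.

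Among replicates, ACTG1 and ACTB deviated from their group mean in the same direction on 9 of 12 arrays. Over the 12 deviations from group means, their Pearson's r was 0.742 (permutation p = 0.0248, adjusted over the 3 pairs of genes 0.0744) and Spearman's rho 0.713 (permutation p = 0.0334, adjusted 0.1003). Without the 2 arrays whose ACTG1 deviation lay farthest from the median deviation, untreated 24 h replicate 3 and cytokines 48 h replicate 3, r was 0.505. On the first slide alone, with 8 arrays, r was 0.602. The relation did not pass 0.05 after adjustment with quantile normalization and passed it with 75th percentile scaling, where r was 0.781 (permutation p = 0.0134, adjusted 0.0401). ACTG1 and PFN1 had r = -0.281 and rho = -0.406 (permutation p = 0.114 and 0.136, adjusted 0.170 and 0.203), with r = -0.237 without the 2 farthest arrays and -0.209 on the first slide. ACTB and PFN1 had r = 0.116 and rho = -0.035 (permutation p = 0.729 and 0.924, adjusted 0.729 and 0.924). Their r was 0.480 without the 2 arrays whose ACTB deviation lay farthest from the median deviation, cytokines 48 h replicates 1 and 3. On the first slide it was 0.501. Deviations within a group sum to 0, so the 12 values are not fully independent.

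**Figure D4:**
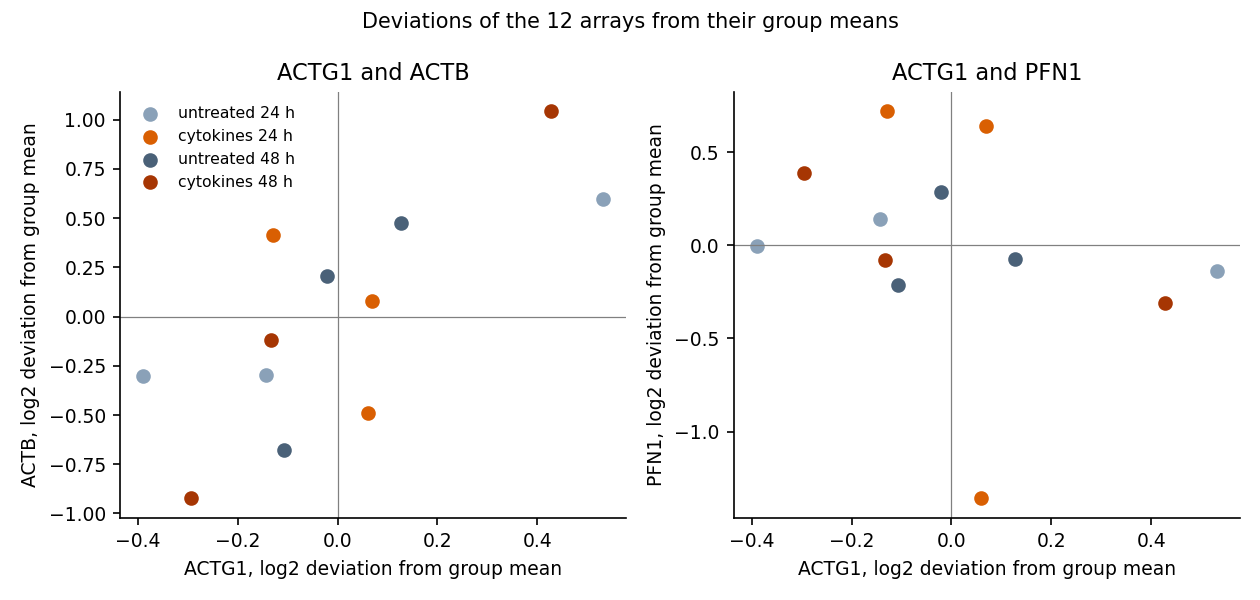
Deviation of each of the 12 arrays from its group mean in log2 units, ACTG1 on the x axis against ACTB (left) and PFN1 (right) on the y axis, coloured by group. ACTG1 and ACTB deviate in the same direction on most arrays (r = 0.742), and in the right panel cytokines 24 h replicate 1 lies far below the rest.

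The linear probes whose signal followed each gene most closely over the 12 arrays, of 18 detected candidates, differed between profilin and the actins. For PFN1 they were MTX1, a mitochondrial outer membrane import protein (r = 0.825), DYNLL1, a dynein light chain (0.818), and ARHGDIA (0.793). Without the 2 arrays farthest from the PFN1 median, cytokines 24 h replicate 1 and cytokines 48 h replicate 3, these were 0.676, 0.577 and 0.504. For ACTG1 they were COX4I1, a subunit of cytochrome c oxidase (0.663), RACK1, a scaffold protein of the small ribosomal subunit (0.638), and RPLP1, a protein of the ribosomal stalk (0.588). For ACTB they were COX4I1 (0.723), RACK1 (0.623) and RPS18, a protein of the small subunit (0.613). The ACTG1 values were 0.729, 0.716 and 0.615 without its 2 farthest arrays, whereas those of ACTB were 0.400, -0.146 and -0.184 without cytokines 48 h replicate 3 and untreated 48 h replicate 3. The likeness of ACTB to these probes thus rested on those arrays. Several of the named probes were dim. COX4I1 exceeded the brightest negative control on 4 of 12 arrays, DYNLL1 on 3, RPS18 on 2 and ARHGDIA on 1. MTX1, RACK1 and RPLP1 exceeded it on all 12. All points of a probe pair share array, normalization and overall brightness, so these r values describe the arrays and carry no test.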

How the data were processed

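Total RNA of EndoC-βH1 cells was digested with RNase R, labelled with Cy3 and hybridized by the authors to Arraystar Human circRNA Array V2 one-colour arrays. They deposited the output of Agilent Feature Extraction 11.0.1.1, in which each spot has an intensity (median pixel signal, local background and background-subtracted processed signal) and flags. The deposited table of normalized values lists circRNA probes alone and was not used.

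Here the log2 processed intensity was quantile normalized over all spots with control type 0, and uniform spots were averaged per probe. The low-intensity filter kept the 10252 probes flagged as detected (positive, significant, above background by the software's stricter cutoff) on 3 or more of 12 arrays, a reading of the methods' flags. All 3 genes passed. Of 70 linear probes, all of which matched a RefSeq symbol by accession, 1 had no uniform spot on some array and 23 were kept. A mean for each of the 4 groups was fitted with limma 3.58.1 in R 4.3.3 (eBayes without trend); the genes enter the same fit at 24 h, where only the count of calls is given and no p is read, and the 48 h contrast is their test. The exact permutation tests of the 3 genes at 48 h were also run in R. Those of relative values, of gene pairs and of correlations were run with numpy 2.4.6 in Python 3.11.15, with 100000 resamples within groups for correlations. Plots were made in matplotlib 3.10.9. Simulated arrays with known changes served to test the fit.

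The genes and lists were chosen with earlier results of these data known. Besides the 3 genes, the text names, apart from some items not reported here, linear probes of the lists that were detected on all arrays, and the 3 linear probes most correlated with each gene; probes next to a gene in mean signal were also eligible. The number of arrays limits the precision. Slide was inferred from scan day, with no array position repeated within a slide. Alternatives covered the scaling, background, filter, spot average, moderation, weights, slide, replicate number and each left-out array; member-to-member differences, the second slide alone, the scan run, the left-out arrays for values relative to other linear probes and the scaling checks of other linear probes were added after values had been seen.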

Additional observations from a re-analysis of the deposited data

How the results depend on the processing

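Of 572 values recomputed for 26 results under 17 other settings and 12 that leave out one array, 538 were labelled the same. For a 48 h difference this meant the same side of the call, and for most other values a move of less than the replicate SD. Signs could turn within that label, as for ACTB at 48 h (-0.20) and PFN1 at 24 h (0.18) with 1 array left out. Many values could not move, since filter and moderation settings leave a log2 difference as it is. The count is therefore no measure of robustness. No setting brought a gene past the call at 48 h; limma adjusted p ranged from 0.335 to 0.930 for ACTG1, 0.636 to 0.997 for ACTB and 0.906 to 0.998 for PFN1. The cause of the following shifts was not tested, except where fewer probes or arrays enter. Scaling moved untreated PFN1 at 48 h against 24 h from -0.27 to -0.79 (75th percentile of circRNA probes), -0.78 (of all spots) and -0.62 (cyclic loess), and took the correlation of ACTG1 and ACTB to 0.781. Background handling shifted levels and 1 difference: the mean distance above the brightest negative control fell to 1.89 without subtraction and 1.16 with normexp (offset 50) for ACTG1, and to 6.68 and 5.54 for PFN1, and the ACTG1 difference at 24 h was 0.70 with normexp. Slide as a block took the ACTB change at 48 h minus that at 24 h to 0.67.

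The number of probes called, 124 at 24 h and 99 at 48 h, was less stable. At 48 h it was 58 without background subtraction, 26 with normexp, 58 for probes detected on all 12 arrays, 342 with array weights and 18 with slide as a block. At 24 h it was 35 with normexp, 1118 with array weights and 45 with only the 6 arrays of that time. Among linear probes fitted alone, 0 were called at 48 h. The 24 h count of that fit is not read, since the genes were chosen with that comparison in view. Leaving out one array gave 67 to 439 at 24 h and 43 to 122 at 48 h, with 332 without untreated 24 h replicate 3 and 439 without cytokines 24 h replicate 3 (67 to 73 without any other array of that time, 79 and 81 without cytokines 48 h replicates 2 and 3). The 48 h count was 56 and 65 without untreated 48 h replicates 1 and 2, and 51, 43 and 50 without cytokines 48 h replicates 1, 2 and 3. The PFN1 change at 48 h minus that at 24 h ran from -0.23 to 0.81 over these.

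Same-numbered arrays were not paired by the data: over 18 pairs of arrays of different groups, deviations from group means correlated at -0.34 to 0.33, with 6 above 0.1. With the replicate number as a block, 93 probes were called at 24 h and 97 at 48 h, and the 48 h differences stayed at 0.42 for ACTG1, 0.32 for ACTB and -0.06 for PFN1 (limma adjusted p = 0.698, 0.893 and 0.984).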
